A study of Drosophila melanogaster with 6 samples.

Results

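Adult muscle precursors are myoblasts that lie beneath the notum, the part of the wing disc that forms the back of the thorax, and later build the flight muscles. The genes described here are 10 genes of these cells, picked by name for that role: twi, Him, zfh1, Mef2, htl, stumps, ct, lms, hbs and sns. All 10 had a row in the authors' deposited table, among 7762 genes in all, and no name was missing. Their mean expression ran from 1.35 to 5.04 log2 CPM (reads scaled to library size), in a table whose lowest gene stood at -0.49. Whether and how the authors filtered low values is not stated. They were picked with earlier results of these data known, and the table holds 1 comparison, so their values are a description and no independent test of them was possible.

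The comparison was between imaginal discs, the larval sacs of epithelium from which adult appendages grow: those of the wing and those of the haltere, the small club-shaped organ behind it that senses rotation in flight. Both groups came from Canton S, a laboratory strain of Drosophila melanogaster labelled as wild type, as wandering third-instar larvae; the labels name no transgene and no treatment. Each tissue had 3 samples, 6 in all. Each was an extract of whole discs, and the labels name no step that separates adhering myoblasts, tracheal branches or blood cells from the epithelium. For each gene the table holds the edgeR results only: the log2 fold change, the expression averaged over both tissues as log2 CPM, the p-value and the false discovery rate (FDR). It has no value per sample. Library depth and the spread between replicates are therefore unknown here. The table does not say which tissue is the numerator. Ubx, the homeotic gene whose RNA marks the haltere disc, had a log2 fold change of -5.22 in the authors' deposited table, so a positive value is taken to mean a higher level in the wing disc.

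In the fly, the adult muscle precursors descend from embryonic mesoderm cells that keep expressing the mesodermal factor Twist. They divide under the epithelium during larval life, held back from differentiation by Notch signaling, and receive fibroblast growth factor (FGF) and Wingless signals from the epithelium. During metamorphosis they fuse into the fibrillar indirect flight muscles, which power the wing stroke, and the tubular direct flight muscles, which steer. In the haltere segment the muscles are far smaller and the homeotic genes set their pattern.

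Him and twi were the members called as different between the tissues, and both were higher in the wing disc. At an authors' FDR under 0.05 (edgeR), 2 of the 10 members were called in the authors' deposited table, both positive. An unadjusted p-value under 0.05 (edgeR) was reached by 4 members, and by 335 of all 7762 genes. Over all genes, 1.34% were called in either direction and 0.464% were called positive. The median log2 fold change of the members was 0.55, against 0.00047 over all genes of the authors' deposited table, with 8 members positive and 2 negative. Since these are extracts of whole discs, several readings of a lower haltere value cannot be told apart. They are fewer myoblasts, less RNA of these genes per myoblast, and a different amount of RNA from other cells. The change ran from -0.22 for hbs to 2.55 for Him, with no common size.

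**Figure D1:**
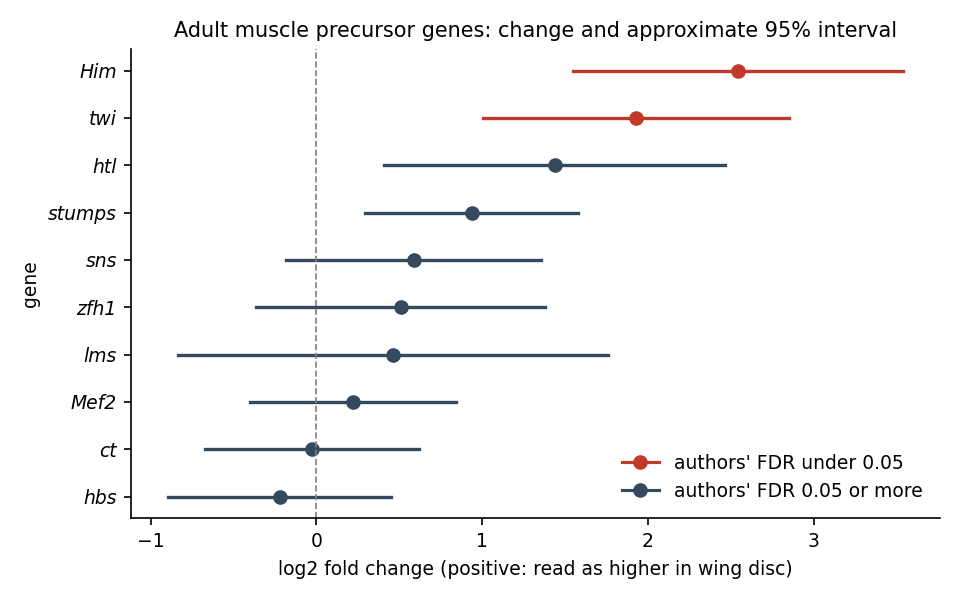
Log2 fold change between wing and haltere discs for each of the 10 genes (x axis, log2 units; genes on the y axis). Points are the values of the authors' deposited table and lines are approximate 95% intervals worked out from its p-values; Him and twi, in red, have an FDR under 0.05, and the intervals of 6 genes hold 0.

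Him encodes a nuclear repressor that holds myoblasts back from differentiation by opposing Mef2. The gene lies on the X chromosome (chrX:18209427-18210741, plus strand, build dm6) and has 0.92 kb of exon. In the authors' deposited table its log2 fold change was 2.55, a 5.84-fold higher level in the wing disc (edgeR FDR 0.000119). An approximate standard error of 0.51 follows from that change and its p-value, with a 95% interval from 1.55 to 3.54. The mean expression of 2.17 log2 CPM in the authors' deposited table corresponds to an implied 7.70 CPM in the wing disc and 1.32 CPM in the haltere disc. Such implied levels split the mean so that the tissues keep the reported fold, and they carry no error of their own. Among the 36 genes called higher in the wing disc, Him ranked 11 by the size of its change and 16 by its p-value.

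The gene twi (twist, chromosome arm 2R) encodes the basic helix-loop-helix factor that marks undifferentiated mesoderm and adult precursors. In the authors' deposited table the log2 change of twi was 1.93, a 3.81-fold higher level in the wing disc (edgeR FDR 0.00501), with an approximate 95% interval from 1.01 to 2.85. The implied levels were 7.12 CPM in the wing disc and 1.87 CPM in the haltere disc. The annotation places a non-coding RNA of the same strand, asRNA:CR42742, over 12.2% of the exon bases of twi, and a gene of the opposite strand, CG9897, over 10.3%. Reads from shared bases cannot be assigned with certainty. Under a Bonferroni adjustment the p-value of twi was 0.325, and that of Him was 0.00405.

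The other transcription factors of the precursor state did not pass. The zinc-finger homeodomain factor zfh1 (chr3R:30765926-30789202, plus strand, dm6) keeps muscle progenitors from differentiating, and it is also known in blood cells. Its log2 fold change was 0.51 in the authors' deposited table (edgeR p-value 0.251, FDR 1), and its approximate 95% interval ran from -0.36 to 1.38. Mef2 (arm 2R), the factor that switches on muscle structural genes and is made both in myoblasts and in differentiated muscle, was at 0.22 (authors' deposited table, edgeR FDR 1). Its approximate interval ran from -0.40 to 0.84, so a difference of the size seen for Him lay outside it. The implied levels of Mef2 were 30.7 CPM in the wing disc and 26.4 CPM in the haltere disc.

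The FGF receptor of these cells and its adaptor had positive values that missed the threshold, while 1 of the ligands passed. The gene htl (heartless, chr3R:18045216-18052984, minus strand, dm6) encodes the receptor tyrosine kinase through which mesodermal cells receive FGF. It had a log2 fold change of 1.44 in the authors' deposited table (edgeR p-value 0.00609, FDR 0.278). Its approximate 95% interval ran from 0.41 to 2.47, and the implied levels were 6.61 CPM in the wing disc and 2.44 CPM in the haltere disc. For stumps (chr3R:14577217-14608079, plus strand, dm6), whose product couples the FGF receptors to the Ras pathway, the change in the authors' deposited table was 0.94 (edgeR p-value 0.00434, FDR 0.223). The implied levels of stumps were 18.3 and 9.57 CPM, the wing disc being the higher, and its approximate interval ran from 0.29 to 1.58. Both unadjusted p-values were under 0.05, and neither gene passed the FDR over all rows. The share of stumps RNA that came from myoblasts was not measured.

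The ligand ths (thisbe), 1 of the FGF8-like ligands of Heartless, was called. Its log2 fold change was 2.06 in the authors' deposited table, a 4.16-fold higher level in the wing disc (edgeR FDR 1.56e-05), with an approximate interval from 1.31 to 2.80. Its paralog pyr (pyramus), named after its value was seen, was at -0.04 (authors' deposited table, edgeR FDR 1). The approximate interval of pyr, from -1.05 to 0.97, lay below that of ths, and the difference between the ligands was not tested. Of the 18 listed FGF pathway genes other than the members, all had a row and ths was the single call. The share called over all genes was 1.34% in either direction. The other 17 FGF pathway genes had a median log2 fold change of -0.04 in the authors' deposited table, from -0.76 for btl to 0.43 for bnl. The first of these genes encodes the FGF receptor of the tracheal system and the second its ligand. The shared Ras pathway genes of the list, among them drk, Sos, Ras85D, phl and rl, lay within 0.5 of 0 and none was called. Of all 7762 genes, 6979 lay within 0.5 of 0.

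The members that distinguish flight muscle types did not pass. The homeobox gene ct (cut, chrX:7608428-7678859, plus strand, dm6) is high in precursors of the direct flight muscles and is also made in the epithelium, at the wing margin and in sense organs. In the authors' deposited table ct was at -0.03 (edgeR FDR 1), and the approximate interval ran from -0.67 to 0.62. The implied levels of ct were 28.5 CPM in the wing disc and 29.0 CPM in the haltere disc. The homeobox gene lms (lateral muscles scarcer, arm 2R), which acts in a subset of direct flight muscles, was at 0.46 (authors' deposited table, edgeR FDR 1). It had the lowest expression of the members, 1.35 log2 CPM, and the widest approximate interval, from -0.84 to 1.76. The gene Mgat1, on the opposite strand, covers 39.3% of the exon bases of lms, and the strand setting of the authors' counting is not stated. The gene vg (vestigial), which marks indirect flight muscle precursors but is also the selector gene of the wing pouch, was at 0.82 (authors' deposited table, edgeR p-value 0.00372 and FDR 0.195). It was named after its value was seen.

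The fusion receptors did not pass either. The immunoglobulin proteins encoded by sns (sticks and stones) and hbs (hibris), both on arm 2R, sit on fusion-competent myoblasts and bind partners on founder cells. In the authors' deposited table sns was at 0.59 (edgeR p-value 0.134, FDR 1), and its approximate interval ran from -0.18 to 1.35. Its paralog hbs, also made in disc epithelium, was at -0.22 (authors' deposited table, edgeR FDR 1), with an interval from -0.89 to 0.45. Of 20 other listed fusion genes, 18 had a row and none was called (edgeR). An unadjusted p-value under 0.05 was reached by 0 of them, and the smallest was 0.181. All 18 lay within 0.5 of 0, as did 6979 of all 7762 genes. The authors' deposited table put the median of the 18 at -0.07. The founder-cell partners kirre and rst were at -0.24 and -0.44 in the authors' deposited table, both with an edgeR FDR of 1. Vrp1, an actin regulator of the fusion site, was at -0.29, and Crk, an adaptor and the most expressed gene of the list, at 0.09 in the authors' deposited table. The expression of the 18 genes had a median of 5.76 log2 CPM, against 3.13 for the members. What share of the RNA of the 18 came from myoblasts was not measured.

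Per length of exon, the members were expressed below the typical gene in these extracts of whole discs. The level within the myoblasts was not measured. Dividing the mean CPM by the exon length gave 5.99 CPM per kb for hbs, 4.90 for Him, 3.11 for Mef2, 2.49 for stumps and 2.31 for ct. Lower values followed for twi at 1.88, sns at 1.83, lms at 1.26, htl at 1.11 and zfh1 at 0.790 CPM per kb. All 10 were under the median of 8.86 CPM per kb over the 7658 genes with an exon length. With no values per sample, neighbours in this order cannot be separated. By implied level per kb, Him ranked 1 among the members in the wing disc, at 8.37, and 6 in the haltere disc, at 1.43. The first rank in the haltere disc was that of hbs, at 6.45 CPM per kb against 5.53 in the wing disc.

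**Figure D2:**
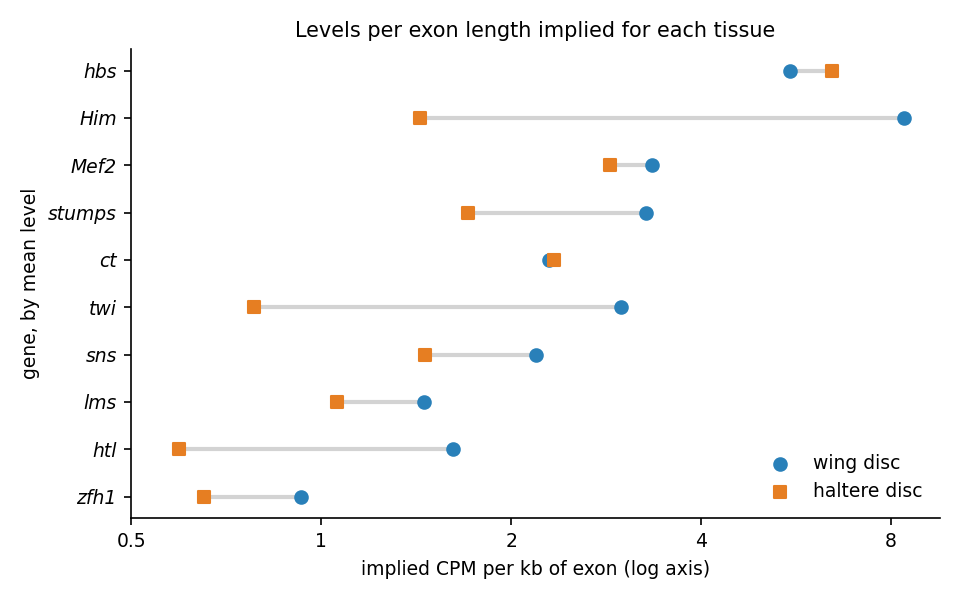
Implied level of each member in the wing disc (blue circles) and haltere disc (orange squares), in CPM per kb of exon on a log axis, with genes ordered by mean level; no error is available for single tissues. The pairs are far apart for Him, twi and htl and close for ct, hbs and Mef2.

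The more expressed members tended to have the lower log2 fold changes. Across the 10 genes, which share the same 6 libraries and are not replicates, Spearman's rho between signed log2 fold change and mean log2 CPM was -0.70. It was not computed over all genes. Approximate standard errors were 0.51, 0.47 and 0.52 for Him, twi and htl, against 0.32, 0.33 and 0.34 for Mef2, ct and hbs. Him, twi and htl had nearly the same mean expression, 2.17, 2.17 and 2.18 log2 CPM in the authors' deposited table, and htl was not called. The members lms and zfh1, at 1.35 and 2.45 log2 CPM, had smaller log2 fold changes of 0.46 and 0.51. Neither lms nor zfh1 was called. The 3 most expressed members were Mef2, ct and hbs, which lay between 4.83 and 5.04 log2 CPM in the authors' deposited table, with changes from -0.22 to 0.22. The approximate intervals of 5 members, sns, zfh1, Mef2, ct and hbs, lay wholly below that of Him. Those of 3 members, Mef2, ct and hbs, lay wholly below that of twi. These differences between genes were not tested. In the window from 1.5 to 2.5 log2 CPM, where 4 members fell, 12 of 730 genes were called (1.64%), and the smallest called change was that of twi.

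**Figure D3:**
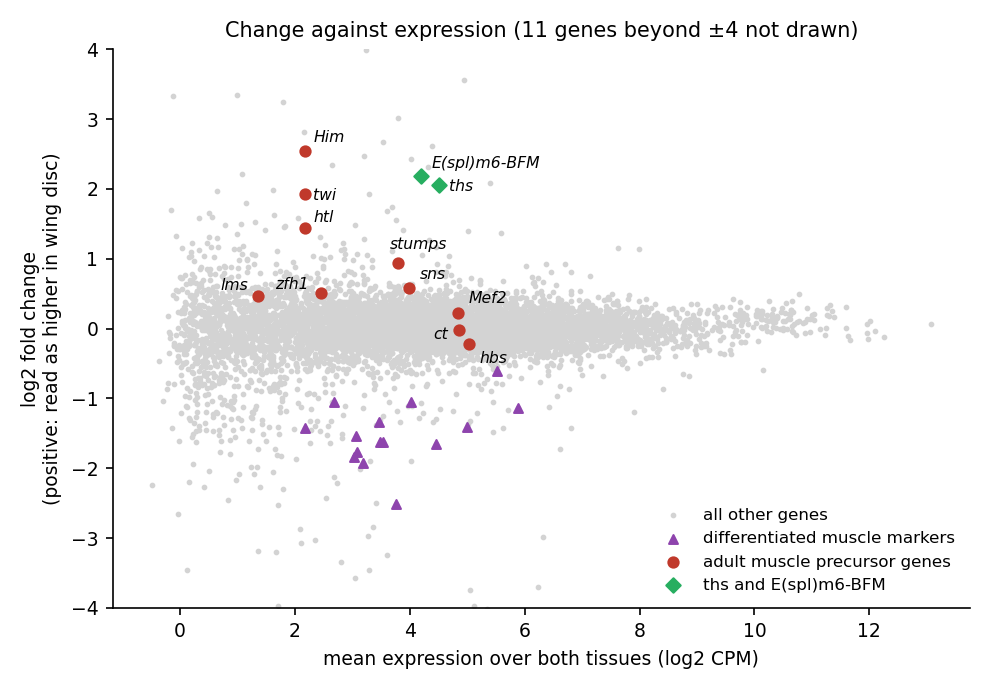
Log2 fold change (y axis, log2 units) against mean expression over both tissues (x axis, log2 CPM) for all genes in grey, the members in red, ths and E(spl)m6-BFM in green and 15 differentiated muscle markers in purple; 11 genes beyond 4 in size are not drawn. Him, twi and htl stand above the band of other genes, ct, Mef2 and hbs lie within it, and the muscle markers lie below 0.

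Among other regulators of these cells, E(spl)m6-BFM was called. This gene of the Enhancer of split complex belongs to the Bearded family, responds to Notch and is known in adult muscle precursors. Its log2 fold change was 2.18 in the authors' deposited table, a 4.53-fold higher level in the wing disc (edgeR FDR 6.86e-10), with an approximate interval from 1.58 to 2.78. It was the single call among 11 myogenic regulators with a row, of 23 listed, whose median in the authors' deposited table was -0.09. The share called over all genes was 1.34% in either direction. This list was chosen with earlier results of these data known, so the call is a description. The expression of the 11 regulators had a median of 6.80 log2 CPM, against 3.13 for the members. What share of the RNA of the 11 came from myoblasts was not measured. The 12 regulators without a row, among them nau, lmd, tin and slou, were not analysed here. None of 9 core genes of the Notch pathway was called (edgeR), and 0 had an unadjusted p-value under 0.05. All 9 lay within 0.5 of 0, as did 6979 of all 7762 genes. The median of the 9 in the authors' deposited table was -0.06, with 3 positive and 6 negative. The smallest p-value was that of fng (fringe, which modifies the receptor), at 0.36 (authors' deposited table, edgeR p-value 0.134). The receptor gene N was at -0.31 and mam, a coactivator, at -0.37 (authors' deposited table, edgeR p-values 0.341 and 0.302).

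Surface and matrix genes of the myoblasts were all positive and none passed. The 6 listed genes had a median log2 fold change of 0.50 in the authors' deposited table. Of the 6, 3 lay within 0.5 of 0, and 3 had an unadjusted p-value under 0.05 (edgeR). Over all 7762 genes, 6979 lay within 0.5 of 0 and 335 had such a p-value. The gene Nrt (Neurotactin, an adhesion protein) was at 0.72 (edgeR FDR 0.378), and kon (kon-tiki, a transmembrane protein of muscle attachment) at 0.89 (authors' deposited table, edgeR FDR 0.767). BM-40-SPARC, a collagen-binding matrix protein, was at 0.67 (authors' deposited table, edgeR FDR 0.774). Ama (Amalgam), the secreted ligand of Neurotactin, was at 0.32 (authors' deposited table, edgeR FDR 1). The remaining genes of this list, how and CadN, were at 0.04 and 0.07 in the authors' deposited table and were named after their values were seen. The genes of this list are also made outside the myoblasts, and the share from each source was not measured.

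The marker genes of other cells were set beside the members. Genes of differentiated muscle went in the opposite direction: all 15 of 19 listed markers with a row were negative and 9 were called, with a median log2 fold change of -1.55 in the authors' deposited table. Over all genes, 0.876% were called negative. The troponin C gene TpnC73F was at -2.51 (edgeR FDR 2.4e-09), and Act57B, a muscle actin, at -1.41 (authors' deposited table, edgeR FDR 0.000447). The other 7 called markers were bt, Mlc1, Zasp66, up, Tm2, wupA and Mlc2, with log2 fold changes from -1.92 to -1.14 in the authors' deposited table. The implied levels of the 15 genes summed to 155 CPM in the wing disc and 379 CPM in the haltere disc, against 158 and 125 CPM for the 10 members. Which cells the RNA of the muscle markers came from, those of the disc or of adhering tissue, was not measured. Mef2 is known in myoblasts and in differentiated muscle, and what part of its RNA came from differentiated muscle was not tested.

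**Figure D4:**
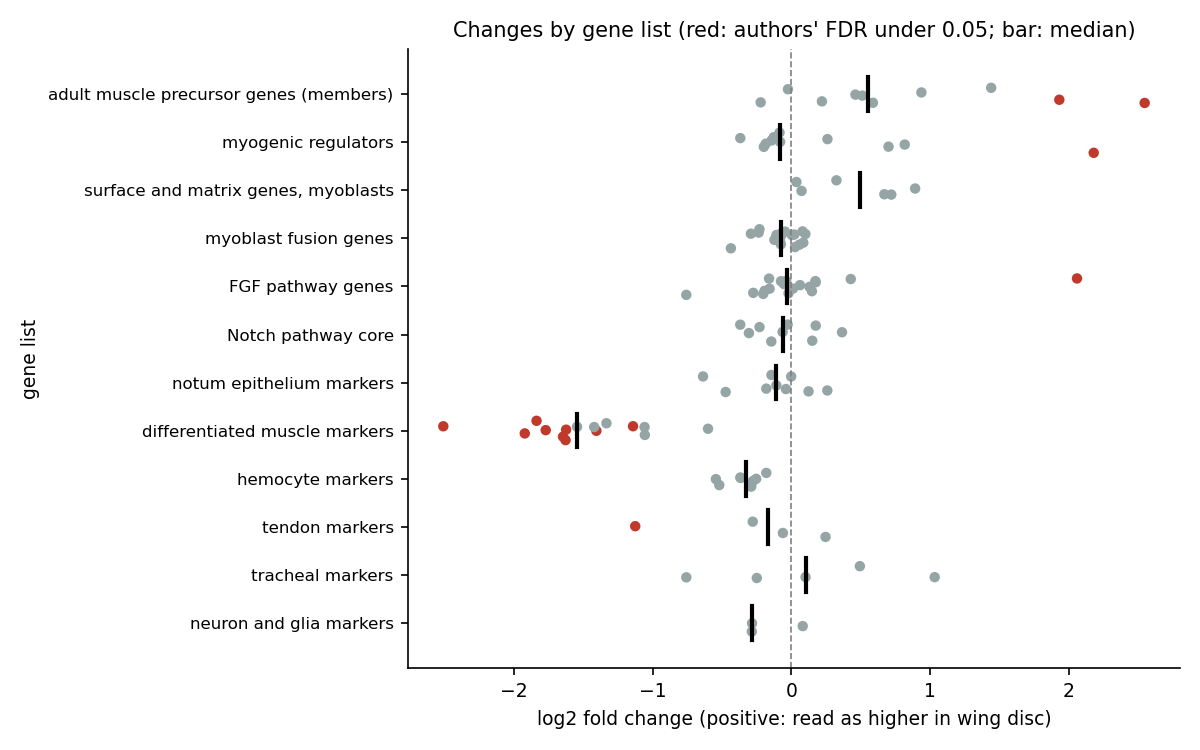
Log2 fold change (x axis, log2 units) of each gene with a row, by gene list (y axis); red points have an authors' FDR under 0.05, grey points do not, black bars are list medians and the vertical scatter within a list carries no value. The members have a median of 0.55, the differentiated muscle markers one of -1.55, and the fusion, FGF and Notch lists medians of -0.07, -0.03 and -0.06.

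Genes of the epithelium over the myoblasts were then examined. None of 9 notum markers was called (edgeR), 1 had an unadjusted p-value under 0.05, 7 were negative and the median was -0.11 in the authors' deposited table. That 1 gene was tup, a LIM-homeodomain gene of the notum, at -0.64 (authors' deposited table, edgeR p-value 0.0193 and FDR 0.639). Such an unadjusted p-value was reached by 335 of all 7762 genes (edgeR). The factor genes eyg and ush were at -0.47 and -0.14, and vn, which encodes an EGF receptor ligand, was at 0.26 (authors' deposited table, edgeR FDR 1 for all of them). The value of pnr, named after it was seen, was -0.0023, with a wide approximate interval from -2.24 to 2.23. The share of the RNA of the notum markers that came from the notum was not measured. Blood cell markers were all negative, 8 of 8 with a row, none called, with a median of -0.33 and a smallest p-value of 0.288, for Pxn (edgeR), in the authors' deposited table. Pxn was at -0.52, Hml at -0.37 and srp, a GATA factor, at -0.54 in the authors' deposited table. The implied levels of the 8 markers summed to 86.0 CPM in the wing disc and 111 CPM in the haltere disc, and their part in the value of zfh1 was not tested.

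Tendon and tracheal cells adjoin the myoblasts in the disc. Tsp (Thrombospondin), a matrix protein of muscle attachment sites, was called at -1.13 (authors' deposited table, edgeR FDR 0.0014), the single call of 4 tendon markers. The share called over all genes was 1.34% in either direction. The defining tendon factor sr (stripe) was at 0.25 (authors' deposited table, edgeR FDR 1). None of 5 tracheal markers was called (edgeR) and 1 had an unadjusted p-value under 0.05, against 335 of all 7762 genes. That marker was the tracheal factor trh, which was at 1.03 (authors' deposited table, edgeR FDR 0.0859). The 5 markers did not share a sign: 3 were positive and 2 negative, with a median of 0.10 in the authors' deposited table. Their expression ran from 2.82 log2 CPM for btl to 7.52 for vvl and 7.81 for pio. What share of their RNA came from tracheal cells was not measured. The receptor gene btl was at -0.76 and dys, named after its value was seen, at -0.25, while vvl was at 0.49 and pio at 0.10 (authors' deposited table, edgeR FDR 1 for all of them). None of 3 neuron and glia markers was called (edgeR) and 0 had an unadjusted p-value under 0.05, with changes in the authors' deposited table of 0.08 for elav, -0.28 for repo and -0.29 for moody.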

How the data were processed

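RNA of 3 wing disc and 3 haltere disc samples was sequenced by the authors, and 1 table of their comparison was used. Per the submitters' processing notes, HISAT2, HTSeq, edgeR and build dm6 were used; versions, strand setting, count filter, covariates and the kind of edgeR test are not given in the sources used here. Per the file headers, the authors deposited, for each gene, the log2 fold change, the log2 CPM averaged over the tissues, the p-value and the FDR. Of 7767 rows, 5 are summary lines of the read counter. They hold 43.3% of the summed CPM and were left out of all gene counts. The CPM values were not rescaled, so they are relative to a total that includes these lines. Without the lines, the implied CPM of all genes summed to 574054 in the wing disc and 564767 in the haltere disc. No values per sample were given, so the planned quasi-likelihood test was replaced by the authors' FDR under 0.05, and 0 columns of per-sample values were left aside. The series' design text calls the samples of a tissue independent biological replicates.

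The members and the 11 gene lists were chosen with earlier results of these data known. The rule names every member and, from each list, every called gene or, with none called, the 3 with the smallest p-values and the most expressed one; other genes given with a value, and the Ras pathway genes named together, were chosen after their values were seen. Of 126 listed genes, 105 had a row, matched by symbol or by a RefSeq synonym of 1 gene only. An approximate standard error is the log2 change over the normal z of the deposited p-value, and intervals are 95%. Implied CPM per tissue assumes that the mean weighs both tissues alike. Exon lengths, counting all annotated exons of a gene once, came from Ensembl release 115 (BDGP6.54, dm6 coordinates), where 98.7% of genes matched. The code for the adjustment and the intervals was run on simulated normal changes, with p-values from the same normal formula that the intervals invert. That run could not show how well the intervals hold for edgeR p-values. Python 3.11.15, numpy 2.4.6, pandas 2.3.3 and scipy 1.17.1 were used.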

Additional observations from a re-analysis of the deposited data

How the results depend on the processing

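The count of 2 called members was the same at an FDR under 0.01, an FDR under 0.1, a log2 change of at least 1, recomputed Benjamini-Hochberg values, the summary lines removed, and a minimum of 1 log2 CPM with readjustment. A Bonferroni adjustment left 1 member, Him, and left 6 of the 12 called genes of the other lists, since it is stricter. The members' median log2 change of 0.55 was 0.76 without ct and hbs; these are the 2 negative members, so leaving them out had to raise it. Among the 47 genes that the naming rule selects, 14 were called, and 8 changed sides in at least 1 alternative; trh passed at an FDR under 0.1. Each alternative reuses the deposited p-values, and the log2 changes stay as deposited under all of them. No paired analysis was possible because the table holds no values per sample. For that reason the DESeq2 fit and the fits without each replicate were not run, and whether 1 library drives a call is not known. Depth is unknown.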
